A study of Mus musculus with 3 samples.

Results

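Endothelial nuclei with high immediate early gene (IEG) transcripts were examined in mouse brown adipose tissue (BAT). Nuclei were taken as endothelial when they held at least 2 UMIs (unique molecular identifiers, each marking 1 captured RNA molecule) of Pecam1, Flt1, Kdr, Ptprb, Cyyr1 and Adgrl4, and when this sum was at least 4 times both the sum of 5 adipocyte genes and the sum of 4 pericyte genes. Of these, the IEG-high nuclei held at least 4 UMIs in total of Fos, Egr1, Nr4a1, Btg2, Apold1, Junb, Fosb and Ier2. They numbered 1672 of 11091 endothelial nuclei, among 36281 nuclei that passed quality filters and 44897 barcodes in all.

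Interscapular BAT had been digested with enzymes, and nuclei were released from the cells that floated after centrifugation, which are brown adipocytes with attached pieces of vessels. They were sorted on a DNA dye, with a gate against doublets, before capture on the BD Rhapsody whole transcriptome platform. All animals were adult WT mice of the strain C57Bl6. The 3 libraries were 1 of untreated BAT (label: non-treatment), 1 of BAT after a sham operation and 1 of BAT after denervation, the last taken 3 days after the sympathetic nerves of 1 side had been cut. The study used male mice only. It names tamoxifen administrations among the steps for the denervated mice and does not mention them for the untreated ones. It describes several mice behind the untreated library and behind the denervated library, without marks that tell them apart. Each condition is a single library, so no test between conditions was made.

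IEGs are genes whose transcription starts within minutes of a stimulus without the need for new protein. Their products are mostly transcription factors, such as the FOS and JUN proteins that pair to form AP-1, the EGR zinc-finger factors and the NR4A orphan nuclear receptors, followed by proteins that shut the response down again. In endothelial cells they follow growth factors, shear stress and injury, and they are also known to respond when tissue is cut and digested. Apold1 is an endothelial early response gene, while the others are induced in many cell types.

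The IEG-high share of endothelial nuclei was 12.7% in the untreated library (588 of 4634, exact Clopper-Pearson 95% interval 11.7 to 13.7%), 16.2% in the sham library (764 of 4706, 15.2 to 17.3%) and 18.3% in the denervated library (320 of 1751, 16.5 to 20.2%). These intervals, like all others below that belong to a single library, cover counting error only. The share moved with depth. IEG-high nuclei of the sham library had a median of 822 UMIs against 474 in nuclei with none of the 8 genes, and those of the denervated library 549.5 against 345, while the untreated library had 699 against 676. After each nucleus was thinned to 300 UMIs, the shares became 5.82% in untreated, 4.63% in sham and 12.7% in denervated BAT, so the order of the untreated and sham libraries turned, with intervals that overlapped (5.14 to 6.56% and 4.03 to 5.30%). Thinning left out 304, 302 and 449 shallower endothelial nuclei.

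The same sum of at least 4 was also found in nuclei that passed the adipocyte rule, namely in 2.13%, 23.7% and 4.18% of them in the untreated, sham and denervated libraries, and in 6.79%, 13.7% and 7.92% of those that passed the pericyte rule. Thinned to 300 UMIs, these values were 0.239%, 5.08% and 0.549% for adipocyte nuclei and 2.84%, 6.32% and 4.30% for pericyte nuclei. In the untreated and denervated libraries the thinned endothelial share was thus the highest of the 3 nucleus types, whereas in the sham library it was the lowest, with an interval that overlapped both others (4.42 to 5.81% for adipocyte and 5.05 to 7.80% for pericyte nuclei). The sham library therefore stood apart, and its table also came without the header of the other 2. Between 251 and 278 barcodes were shared by each pair of libraries, and 1 IEG-high barcode was shared, between sham and denervated.

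**Figure D1:**
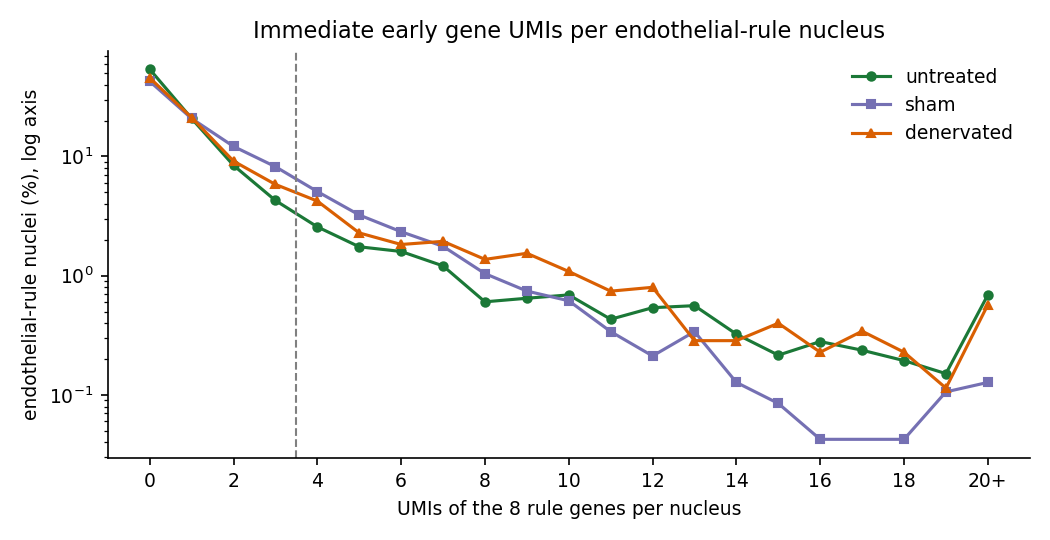
Share of endothelial nuclei (%, log axis) by the number of UMIs of the 8 IEGs per nucleus, 1 line per library, with the last point holding all sums of 20 or more and a dashed line at the threshold between 3 and 4. The share falls without a gap through the threshold in all 3 libraries, and from a sum of 14 upward the sham library lies lowest, with 0 nuclei at a sum of 17, which a log axis cannot show.

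The sum that defined the nuclei had no break at the threshold. Sums of 3 were held by 198, 386 and 102 nuclei and sums of 4 by 119, 239 and 74 nuclei in the untreated, sham and denervated libraries. Nuclei just outside had medians of 772, 712 and 479.5 UMIs and those just inside 693, 730 and 426 UMIs. The sum was higher in IEG-high nuclei of the untreated and denervated libraries, with a median of 7 UMIs in both, than in the sham library, with a median of 5. At least 8 UMIs were held by 43.9% of them in untreated, 23.6% in sham and 43.8% in denervated BAT. The highest sum in a single nucleus was 35, 25 and 30 UMIs.

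Several of the 8 genes were usually present, which the rule's sum of at least 4 UMIs over them itself favours. Whether they occurred together more often than the rule implies was not tested. A nucleus carried UMIs of a median of 4, 3 and 4 of the 8 genes in the untreated, sham and denervated libraries. At most 4.93% of IEG-high nuclei in any library reached the threshold through 1 gene alone, and 29.9%, 16.8% and 28.8% held at least 5 of the genes.

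Among the transcription factors, Egr1 was detected in 86.9%, 83.8% and 82.8% of IEG-high nuclei in untreated, sham and denervated BAT and gave 39.3%, 33.6% and 34.7% of the UMIs of the 8 genes. It was the gene with the most UMIs of the 8 in every library. Fos gave 10.4%, 15.1% and 8.48% of these UMIs, with the highest share in sham. Fosb, its close relative, likewise had its highest share in sham, at 11.8% against 4.10% in untreated and 5.50% in denervated BAT. Junb, a partner of both, gave 8.44%, 9.21% and 14.2%. Nr4a1, the founding NR4A receptor, gave 14.8%, 9.13% and 19.2% and was lowest in sham. Among the other genes, Btg2, which restrains proliferation, gave 12.8%, 14.7% and 8.29%, and Ier2, a nuclear protein of the early response, 5.65%, 4.15% and 4.62%. These are counts of captured molecules and not levels per transcript length. They also chose the nuclei, so they describe them and were not tested.

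The makeup of the sum was compared with that in nuclei of the other types with the same sum. Apold1 was detected in 26.4%, 12.2% and 25.9% of IEG-high endothelial nuclei in the untreated, sham and denervated libraries and gave 4.61%, 2.39% and 4.89% of the UMIs. In adipocyte nuclei with a sum of at least 4 its share was 0.553%, 0.0798% and 0.264%, and in pericyte nuclei 1.12%, 0.253% and 1.38%. These shares rest on only 4, 7 and 4 UMIs of Apold1 in adipocyte and 3, 4 and 3 in pericyte nuclei. The interval in denervated pericyte nuclei ran from 0.29 to 3.99%. Fosb had 12.7%, 20.5% and 17.9% of the UMIs in adipocyte and 19.1%, 20.5% and 21.2% in pericyte nuclei. The endothelial share of Apold1 was thus above, and that of Fosb below, both other types in each library. Endothelial nuclei with a sum of 1 to 3 had still more of Apold1 (8.04%, 3.29% and 6.02%) and less of Fosb (2.69%, 6.86% and 4.81%), so neither was particular to IEG-high nuclei. The shares of Egr1 and Ier2 were also above both other types in each library, for Egr1 in sham by as little as 33.6% against 33.1% in adipocyte nuclei.

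**Figure D2:**
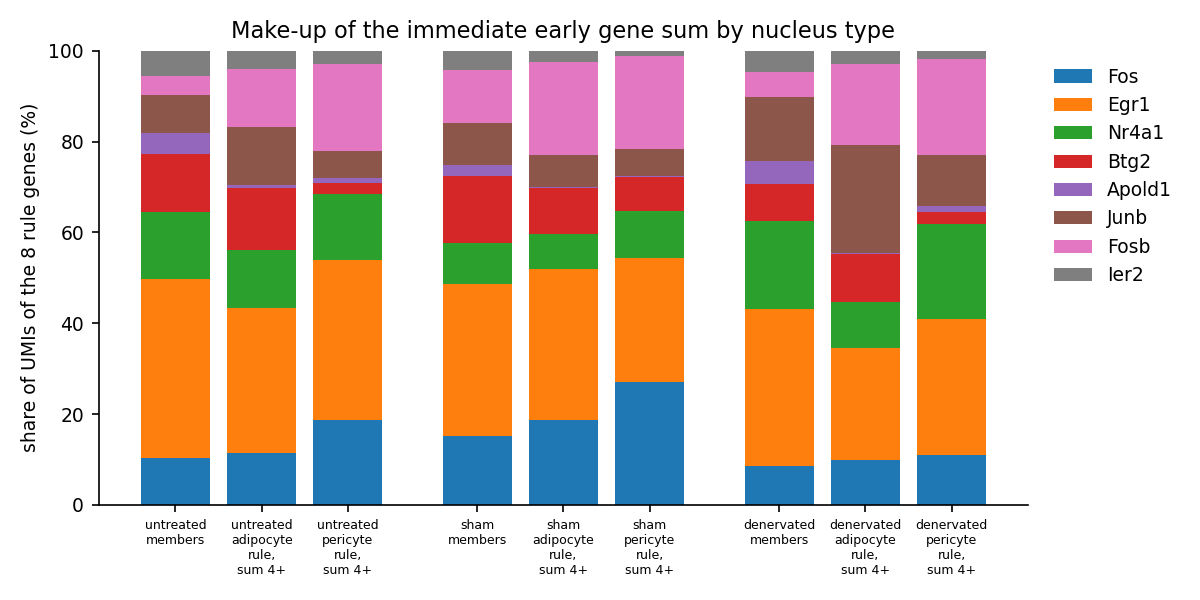
Stacked bars of the share (%) that each of the 8 IEGs had in their summed UMIs, for IEG-high endothelial nuclei (members) and for nuclei that passed the adipocyte or pericyte rule with a sum of 4 or more, in each library. Egr1 has the largest segment in the endothelial bars, with 39.3%, 33.6% and 34.7%, and the purple segment of Apold1 is wider there than in the neighbouring bars.

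The sequences just before the start sites of IEGs are shown because early response genes are known to be read through short elements there. Elements were searched in the 250 bases before each RefSeq start (GRCm38.p6), on both strands, for 27025 genes, and 6 of the 8 IEGs had an entry. The stretches below hold the 150 bases before the start, 5′ to 3′ on the gene's strand, with matches in capitals, and no exon of GENCODE vM21 overlaps them. They lie at chr1:134079156-134079305 (minus strand) for Btg2, chr15:101266696-101266845 (plus) for Nr4a1, within an intron of a longer Nr4a1 transcript, chr12:85473740-85473889 (plus) for Fos and chr10:67537719-67537868 (plus) for the third RefSeq start of Egr2.
Btg2: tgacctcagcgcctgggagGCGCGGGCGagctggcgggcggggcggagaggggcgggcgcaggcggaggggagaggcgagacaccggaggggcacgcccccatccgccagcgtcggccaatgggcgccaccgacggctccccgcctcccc
Nr4a1: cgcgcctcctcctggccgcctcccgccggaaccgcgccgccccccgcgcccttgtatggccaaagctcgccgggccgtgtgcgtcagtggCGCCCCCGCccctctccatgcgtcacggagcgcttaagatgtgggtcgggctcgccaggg
Fos: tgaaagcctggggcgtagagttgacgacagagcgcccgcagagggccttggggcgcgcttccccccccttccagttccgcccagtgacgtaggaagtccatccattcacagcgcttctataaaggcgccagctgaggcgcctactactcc
Egr2: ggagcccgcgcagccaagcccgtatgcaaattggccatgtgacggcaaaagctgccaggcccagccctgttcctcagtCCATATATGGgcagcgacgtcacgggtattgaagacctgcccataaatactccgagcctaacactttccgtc

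The capitals mark an EGR site (GCGNGGGCG or its complement) in Btg2 and Nr4a1 and a CArG box, the element bound by serum response factor, in Egr2, while the Fos stretch holds no match in this window. The EGR site was found for 3 of the 6 IEGs with an entry (Btg2, Fosb and Nr4a1), for 11.9% of the genes tested below and for 5.33% of all genes. Of the genes found higher in IEG-high nuclei in the comparison that follows, 55 had an entry, and 12 of these (21.8%) held the EGR site. The CArG box was held by 4 of the 55 (Actg1, Egr2, Vcl and Zfp36, 7.27%), by 1.42% of genes tested and by 1.62% of all genes. The cAMP response element TGACGTCA was held by 4 of the 55 (7.27%) against 3.12% of genes tested, and the AP-1 site TGANTCA by 3 of the 55 (5.45%) against 5.12%. The letters TGACGTCA do not contain TGANTCA, so no match counts for both. A match describes the letters only.

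To find which other genes accompanied the IEGs, each IEG-high nucleus was set against an endothelial nucleus of the same library with none of the 8 genes, chosen for its UMI count. UMIs were summed per library, and the split was tested over the 3 libraries, with the library as a block, by edgeR's quasi-likelihood test with Benjamini-Hochberg adjustment over all genes tested. The genes of the selection rule were left out. Of 7388 genes, 78 (1.06%) were higher and 3 (0.0406%) were lower in IEG-high nuclei at an adjusted p under 0.05. The libraries differ in condition, and edgeR shares its estimate of dispersion between genes. The p-values therefore do not measure the spread between animals, and a call does not mean that the 3 library ratios were alike. Of the 78 higher genes, 75 had a positive log2 ratio in each library, and 25 belonged to the lists of early transcription factors and feedback regulators. The median log2 ratio over the 78 was 1.59 in untreated and 1.17 in sham, with the denervated library between them, and the median over all genes tested was 0.0021.

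The match on depth was close in the untreated library, with medians of 689 and 689 UMIs outside the 8 genes. In the denervated library the medians were close, at 541 and 532.5, but IEG-high nuclei had an upper quartile of 728 against 646. The match was thus incomplete among its deep nuclei. It was incomplete in the sham library as well, with medians of 816 against 686, because too few deep nuclei lacked the 8 genes. Mitochondrial UMIs made up a median of 10.7% against 7.55% in untreated, 8.04% against 9.74% in sham and 6.22% against 4.33% in denervated BAT, so they were higher in IEG-high nuclei of 2 libraries. The part of depth and mitochondrial RNA in the gene differences was not tested beyond the alternative settings. Without the sham library 132 genes were higher and 92 lower, without the untreated library 25 and 0, and without the denervated library 43 and 0.

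Early transcription factors outside the rule were the first group with many calls. Of 24 listed genes 18 had enough UMIs to be tested (at least 50 in all), and 13 of them were higher and none was lower, with a median log2 ratio of 1.75. Without the untreated library 7 were called higher, with DESeq2 8 and with at least 500 detected genes 4. The list took 7825 CPM (UMIs of the genes as a share of those nuclei's UMIs outside the genes of the selection rule, on the usual CPM scale) in IEG-high nuclei against 2145 in matched nuclei of the untreated library, 3622 against 1775 in sham and 7609 against 2741 in denervated BAT. The ratio was thus smallest in the sham library.

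Egr3, a zinc-finger factor of the Egr1 family, had 127 CPM in IEG-high and 4.45 in matched nuclei of the untreated library, 60.9 against 7.09 in sham and 88.2 against 5.68 in denervated BAT. The matched values rest on 2, 4 and 1 UMIs, and the log2 ratios had exact conditional 95% intervals of 2.91 to 7.91, 1.64 to 5.04 and 1.30 to 9.33. It was higher in IEG-high nuclei of each library, and the log2 ratio over the 3 was 3.89 ± 0.45 (SE, n = 3 libraries, adjusted p = 8.55e-15, edgeR). This SE, like those below, comes from the edgeR fit and is not the spread of the 3 library ratios. Nr4a3, an orphan receptor related to Nr4a1, had 104 against 2.22, 58.1 against 12.4 and 172 against 17.0 CPM in the same order (log2 ratio 3.31 ± 0.40). With 1, 7 and 3 UMIs in matched nuclei, its intervals ran from 3.004 to 10.9, 1.06 to 3.63 and 1.68 to 5.68. Its sister Nr4a2 was also higher (2.02 ± 0.37), though not without the untreated library. Thus both NR4A receptors that the rule did not use were among the called genes.

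Jun, the central partner in AP-1, had 2004 CPM in IEG-high nuclei of the untreated library against 189 in matched nuclei, 957 against 259 in sham and 1467 against 250 in denervated BAT. The 3 IEG-high values lay above all 3 matched values. The log2 ratio was 2.64 ± 0.22 (n = 3, adjusted p = 2.28e-28, edgeR), the smallest adjusted p among the named genes. An antisense gene, Junos, overlaps Jun, and its reads may be counted with it. Jund, a JUN protein that is present in most resting cells, had 2022 against 378, 605 against 184 and 2094 against 534 CPM (log2 ratio 2.09 ± 0.22). Atf3, a stress-induced factor that pairs with JUN proteins, had 206 against 13.3, 104 against 14.2 and 209 against 17.0 CPM (3.47 ± 0.34). It rests on 6, 8 and 3 UMIs in matched nuclei, and its denervated interval ran from 1.98 to 5.95. Egr2 was higher as well (3.18 ± 0.52), though its matched nuclei held 2, 5 and 0 UMIs.

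The Krüppel-like factors of this list, picked for mention after their values had been seen, differed in size. Klf4, which limits endothelial inflammation, had 712 against 238 CPM in untreated, 481 against 232 in sham and 613 against 290 in denervated BAT (log2 ratio 1.29 ± 0.21, adjusted p = 1.37e-07, edgeR). Klf2, the shear-stress factor of quiescent endothelium, had 881 against 407, 230 against 167 and 929 against 619 CPM (0.78 ± 0.20, adjusted p = 0.013). Klf2 was lower in both kinds of nuclei of the sham library than in any class of the other libraries given here. Klf4 lost its call without the untreated library and Klf2 without the untreated or the denervated library. Of 14 alternative settings, Klf4 kept its call in 11 and Klf2 in 6. Klf9 was not called, with a log2 ratio of -0.06.

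**Figure D3:**
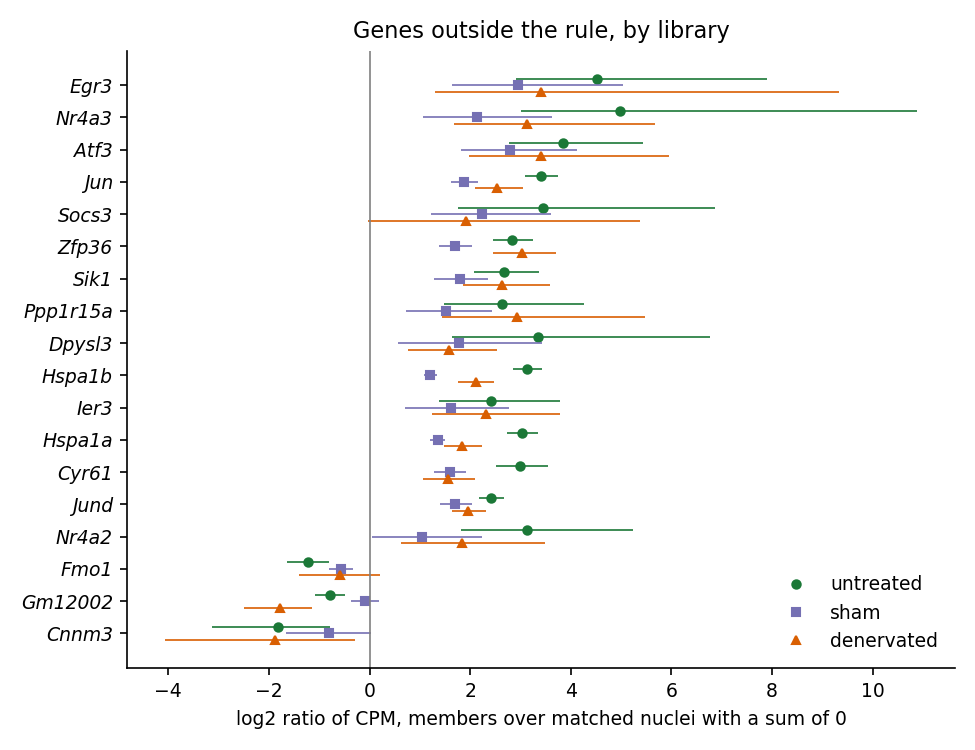
Log2 ratio of CPM between IEG-high endothelial nuclei and matched nuclei with a sum of 0, for the genes named by rule, with 1 point per library and exact conditional 95% intervals for counting error. The 15 genes at the top lie above 0 in each library, with the untreated point to the right of the sham point throughout, and Fmo1, Gm12002 and Cnnm3 lie below 0.

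Feedback regulators of the early response were the second group. Of 27 listed genes 23 were tested, and 12 were higher and none lower, with a median log2 ratio of 0.92. Without the untreated library 6 were called higher, without the denervated library 8, with DESeq2 6 and with at least 500 detected genes 2. Zfp36, an RNA-binding protein that speeds the decay of early transcripts, had 957 CPM against 133 in untreated, 580 against 177 in sham and 1175 against 142 in denervated BAT. All 3 IEG-high values exceeded all matched values (log2 ratio 2.50 ± 0.22, n = 3, adjusted p = 1.84e-26, edgeR). Sik1, a kinase induced by cAMP that restrains CREB coactivators, had 360 against 55.6, 230 against 65.6 and 506 against 79.5 CPM (2.37 ± 0.24). Socs3, an inhibitor of JAK and STAT signalling, had 59.9 against 4.45, 70.6 against 14.2 and 51.1 against 11.4 CPM (2.65 ± 0.44). In the denervated library its interval reached below 0, from -0.03 to 5.38, since it rests on 11 and 2 UMIs. Ier3, which protects cells from apoptosis, was also higher (2.19 ± 0.33).

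Of the remaining feedback genes, Dusp1, a phosphatase that turns off MAP kinases, had 681 against 176, 358 against 177 and 502 against 216 CPM in untreated, sham and denervated BAT (log2 ratio 1.45 ± 0.21, chosen for mention after its value was seen). Its relative Dusp6 (0.92), Spry4 (1.21) and Errfi1 (2.11), which dampen receptor tyrosine kinase signals, were called higher too. Without the untreated library Dusp1, Dusp6 and Spry4 were not called, and without the denervated library Dusp6 and Spry4 were not. Errfi1 lost its call in 5 of 13 alternative settings, among them DESeq2 and at least 500 detected genes. Not called with all 3 libraries were Spry1 (0.48), Spred1 (0.20), Spred2 (-0.07), Tob2 (0.25) and Rgs2 (-0.11). The list was thus uneven among its members. Genes given in this and the other paragraphs beyond the strongest of each list were picked after their values were seen.

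Of 11 heat shock genes, 6 were higher, 5 were not called and none was lower, with a median log2 ratio of 0.91. The count was 4 without the untreated library, 4 with at least 500 detected genes and 0 with no replicate block, where 6 genes in all were called higher and 213 had an unadjusted p under 0.05. Hspa1b, an inducible HSP70, had 2291 against 260 CPM in untreated, 2800 against 1213 in sham and 1918 against 443 in denervated BAT (log2 ratio 2.15 ± 0.23, n = 3, adjusted p = 3.84e-18, edgeR). Its near-identical copy Hspa1a had 1844 against 225, 2126 against 832 and 1491 against 414 CPM (2.08 ± 0.22), and reads may be split between the pair. Matched nuclei of the sham library were the highest of the 3 matched sets for both genes, and the interval of the sham ratio for Hspa1b, 1.08 to 1.33, lay below those of the untreated library, 2.86 to 3.43, and of the denervated library, 1.76 to 2.48.

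A UMI of either HSP70 gene was present in 68.9%, 88.4% and 65.0% of IEG-high nuclei in untreated, sham and denervated BAT. The share in matched nuclei was not computed, so these values do not set IEG-high nuclei apart. Hsp90aa1, the inducible HSP90, had 1325 against 425, 2009 against 770 and 2085 against 897 CPM (log2 ratio 1.45 ± 0.21), and Dnajb1, the HSP40 that works with HSP70, 244 against 107, 369 against 101 and 246 against 102 CPM (1.53 ± 0.23). Constitutive Hspa8 was not called (0.47, but called at 0.67 without the sham library), nor were the mitochondrial chaperones Hspd1 (0.71) and Hspe1 (0.78).

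The levels of these 3 lists followed the number of IEG UMIs in the nucleus. In the untreated library the early transcription factors took 2233, 2874, 5909 and 10148 CPM in endothelial nuclei with sums of 0, 1 to 3, 4 to 7 and at least 8. In sham the values were 1774, 2398, 3178 and 4980 CPM, and in denervated BAT 2528, 3744, 6469 and 8807 CPM. They increased at each step in every library, also below the threshold, and least in sham. Heat shock genes increased from 3572 to 12234 CPM in untreated, from 6118 to 12943 in sham and from 4127 to 10244 in denervated BAT. Endothelial genes outside the rule took 6918 CPM at a sum of 0 and 5646 CPM at a sum of at least 8 in the untreated library. Pericyte genes outside the rule also increased at each step, from 282 to 1203 CPM in untreated, from 480 to 1105 in sham and from 359 to 1390 in denervated BAT. Median mitochondrial UMIs went from 7.42% to 11.4% in untreated and from 2.74% to 6.28% in denervated BAT, and were 7.98% and 7.99% in sham at the same ends. The part of both in the increase was not tested.

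**Figure D4:**
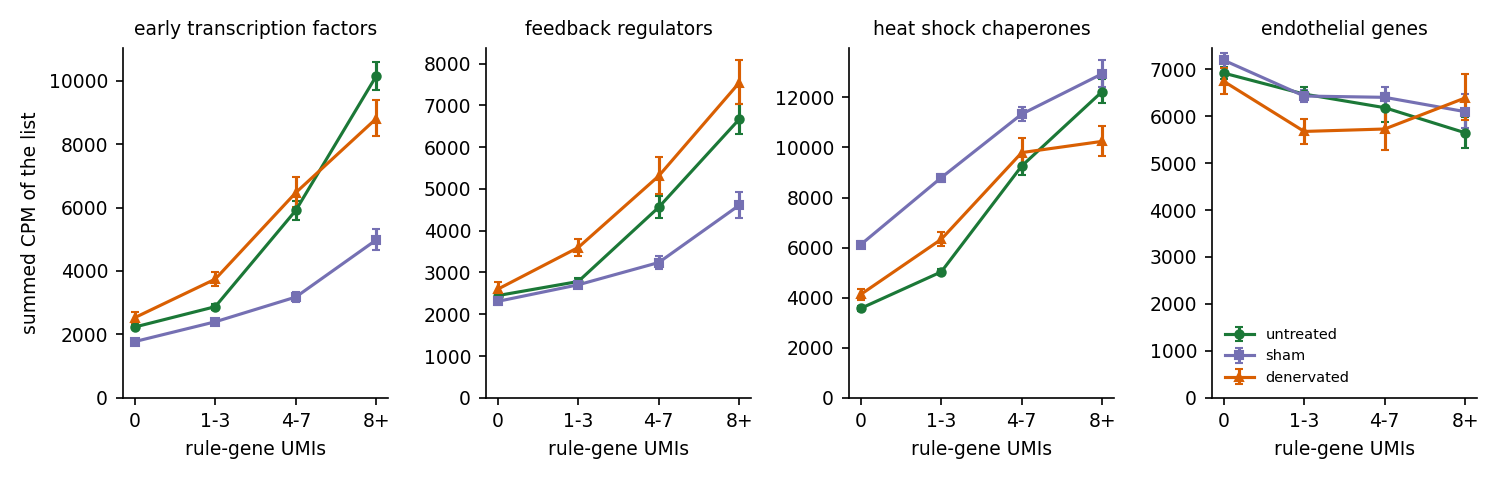
Summed CPM of 4 gene lists in endothelial nuclei grouped by their IEG UMIs (0, 1 to 3, 4 to 7, 8 or more), 1 line per library, with exact Poisson 95% intervals. Early transcription factors go from 2233 to 10148 CPM in untreated nuclei and from 1774 to 4980 CPM in sham nuclei, while endothelial genes lie between 5646 and 7192 CPM.

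Genes read by serum response factor and YAP, which link the actin cytoskeleton to transcription, were in part higher. Of 14 listed genes 9 were tested and 4 were called higher, with a median log2 ratio of 0.49 (0.79 without the sham library). Medians without 1 library, here and below, cover only the listed genes that were also tested in that fit. Without the untreated library 1 was called. Cyr61, a matricellular protein secreted by activated endothelium, had 681 against 84.5, 563 against 186 and 706 against 238 CPM in untreated, sham and denervated BAT (log2 ratio 2.06 ± 0.22, n = 3, adjusted p = 1.36e-18, edgeR). The actins followed with smaller ratios, Actg1 at 1.21 ± 0.20 and Actb at 0.81 ± 0.22, and the actin linker Vcl at 0.87 ± 0.21. Actg1, Vcl and Actb lost their calls without the untreated library, and Actb also without the denervated one. Edn1, which encodes the vasoconstrictor endothelin, was not called (-0.16).

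Of the NF-kB and activation genes 3 of 8 tested were higher, namely the chemokine Cxcl1, the nuclear NF-kB regulator Nfkbiz (log2 ratio 1.49 ± 0.26) and the adhesion molecule Selp. Cxcl1 rests on 4, 16 and 32 UMIs in IEG-high and 0, 2 and 8 in matched nuclei of the untreated, sham and denervated libraries. Without the untreated library neither Cxcl1 nor Nfkbiz was called. Selp changed sign between libraries, with 2.22 CPM against 15.6 in untreated, 80.2 against 23.1 in sham and 92.9 against 5.68 in denervated BAT, with 1 UMI in untreated IEG-high and 1 in denervated matched nuclei (intervals -8.30 to 0.15 and 1.39 to 9.41). Its call was lost in 10 of 13 alternative settings, among them without the denervated library. Icam1 (0.88, but called at 1.25 without the sham library), Relb (0.34) and Nfkb1 (-0.02) were not called.

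Growth arrest and stress genes had 3 of 9 called higher, with a median log2 ratio of 0.69. Cdkn1a, the inhibitor p21 that halts the cell cycle, had 342 against 60.0 CPM in untreated, 332 against 218 in sham and 362 against 125 in denervated BAT (log2 ratio 1.45 ± 0.22, n = 3, adjusted p = 2.01e-08, edgeR). The IEG-high values were close to one another, and the spread lay in the matched nuclei. Atf4 (1.12 ± 0.21) and Gadd45g (1.76 ± 0.42), of the integrated stress response and the growth arrest family, were also called. None of these 3 was called without the untreated library. Ppp1r15a, which reverses the translational block of that stress response, had 88.8 against 13.3, 83.0 against 28.4 and 149 against 17.0 CPM (2.23 ± 0.34), the last from 32 and 3 UMIs (interval 1.45 to 5.48).

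Other lists held few calls or none. Of 6 glucocorticoid response genes only Sgk1 was called (log2 ratio 0.83 ± 0.21, not without the untreated or the denervated library), and Fkbp5 stood at -0.56 without a call. Of 7 interferon response genes tested none was called, with a median of 0.14 that ran from -0.027 without the sham library to 0.25 without the untreated library. Rsad2 had 488 against 611, 551 against 633 and 469 against 392 CPM in untreated, sham and denervated BAT. Among 15 tested angiocrine factors and receptors, which signal between endothelium and parenchyma, Apln alone was called (1.89 ± 0.42), with 84.3 against 6.67, 11.1 against 3.55 and 125 against 73.8 CPM. Its matched nuclei held 3, 2 and 13 UMIs, its intervals ran from 2.005 to 6.001, -0.68 to 4.91 and -0.24 to 1.84, and it was not called without the untreated library. Kitl, which encodes stem cell factor, the ligand of c-Kit, had a log2 ratio of 0.02.

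**Figure D5:**
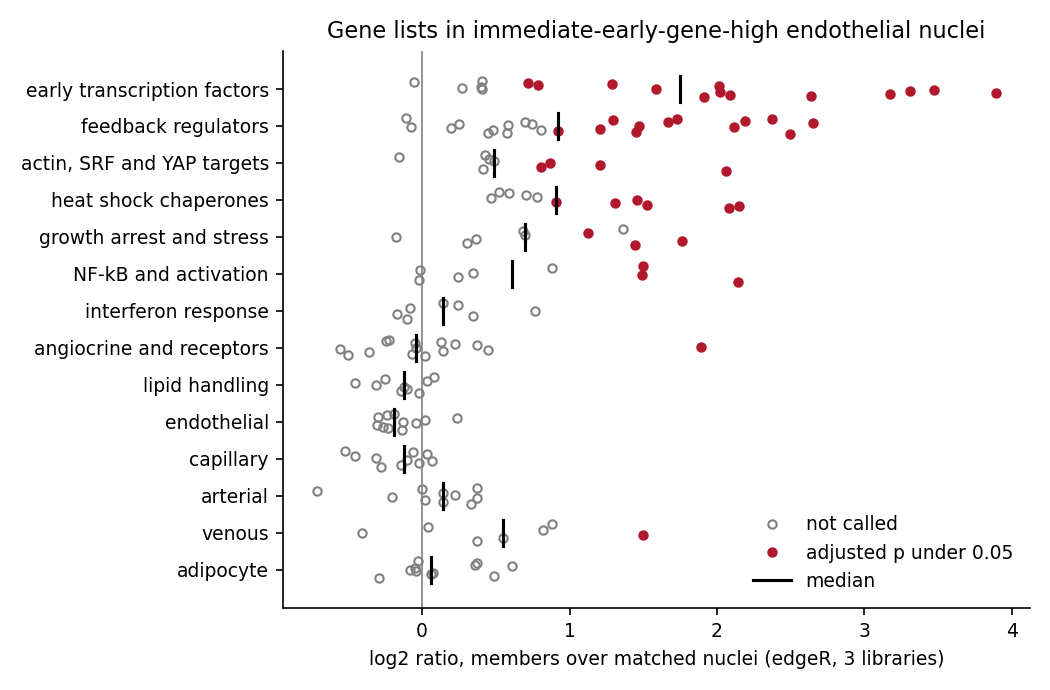
Log2 ratio of each tested gene (edgeR, 3 libraries, IEG-high over matched nuclei) by gene list, with filled red points for genes called at an adjusted p under 0.05, open points for the others and a black bar at the list's median. Red points fill the lists of early transcription factors (13 of 18) and feedback regulators (12 of 23), and the endothelial and capillary lists hold none.

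Endothelial genes that the rule did not use were abundant in the IEG-high nuclei. These genes, among them Cdh5, Tie1 and Tek, took 5939 CPM in IEG-high and 7077 in matched nuclei of the untreated library, 6326 against 6911 in sham and 6049 against 6890 in denervated BAT. Of 11 tested none was called, and the median log2 ratio was -0.19. Tie1, an endothelial receptor kinase, had 1192 against 1385, 1075 against 1367 and 1221 against 1465 CPM, and was lower in each library without a call (log2 ratio -0.23 ± 0.21). The smooth muscle, immune, fibroblast, Schwann cell and lymphatic lists summed to between 6.66 and 97.5 CPM in IEG-high nuclei. The lymphatic markers Lyve1 and Mmrn1 had 0 UMIs in the untreated and denervated libraries. Prox1 and Reln were detected in untreated nuclei and Lyve1 in sham. The lymphatic list held 3 and 11 UMIs in these 2 libraries, against 4 and 7 in matched nuclei.

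The 10 listed genes of capillary endothelium, some of which adipocytes also express, took 14918 against 15396 CPM in untreated, 13838 against 15565 in sham and 10525 against 12326 in denervated BAT, and none was called. Nuclei that passed the adipocyte rule had 3361, 5354 and 3702 CPM of the same genes. Cd36, the fatty acid translocase, had 5427 against 5507, 4172 against 4788 and 4054 against 3951 CPM, and Fabp4, a fatty acid carrier, 3523 against 3786, 4859 against 5235 and 2814 against 3287 CPM. Their log2 ratios were -0.02 ± 0.24 and -0.10 ± 0.23. Of 9 tested genes of lipid handling none was called. Arterial genes had 0 of 10 called and a median of 0.14 (0.042 without the untreated library), with Cxcl12 at 0.37 (0.64 and called without the sham library) and Sema3g at -0.21. Venous genes had 1 of 7 called (Selp) and a median of 0.55, which was 0.98 without the untreated and 0.25 without the denervated library, and their sum was lower than in matched nuclei in the untreated library (919 against 1122 CPM) but higher in sham (1005 against 940) and denervated BAT (2279 against 1345).

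Genes of the neighbouring cell types were present as well. Adipocyte genes outside the rule took 7039 against 6132 CPM in untreated, 2903 against 3094 in sham and 8900 against 8620 in denervated BAT, and 0 of 11 were called. Pericyte genes outside the rule took 932 against 327, 776 against 615 and 1309 against 460 CPM, so they were higher in IEG-high nuclei of each library, and least so in sham. In the untreated and denervated libraries, but not in sham, most of the difference lay in Rgs5, a pericyte regulator of G proteins, with 843 against 289, 505 against 452 and 1221 against 414 CPM (log2 ratio 1.10 ± 0.21, n = 3, adjusted p = 2.13e-05, edgeR). Nuclei that passed the pericyte rule had 5826, 5839 and 2735 CPM of Rgs5. For the rule's own pericyte genes, which the selection limited, the difference was larger in sham than in untreated BAT. They took 260 against 94.0 CPM in sham and 95.4 against 86.7 CPM in untreated nuclei. With the endothelial sum at least 8 times the other sums, Rgs5 had a log2 ratio of 0.88 and was no longer called, and 44 genes were higher, 41 of them among the 78. Rgs5 also lost its call without the untreated library (0.83) and without the denervated library (0.87). The part of pericyte RNA in the other differences was not tested further.

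A few further genes outside the lists stood out. Plxdc2, a plexin-domain receptor, had 593 against 86.7, 181 against 63.8 and 678 against 238 CPM in untreated, sham and denervated BAT (adjusted p = 2.72e-16, edgeR), and Dpysl3, a cytoskeletal protein best known in neurons, was higher by a log2 ratio of 2.08 ± 0.36, with 25 against 2 UMIs in untreated nuclei (interval 1.64 to 6.76). The tight junction gene Cldn5, a hallmark of endothelium, had 1585 against 654, 795 against 724 and 1412 against 704 CPM (0.84 ± 0.21, adjusted p = 0.00633, edgeR). In sham its interval, -0.05 to 0.32, included 0. The Notch target Hes1 (1.57 ± 0.22) and the cyclin Ccnd1 (1.52 ± 0.25) were called as well. Without the untreated library Cldn5 and Ccnd1 were not called, and Cldn5 was not called without the denervated library either. Plxdc2, Cldn5, Hes1 and Ccnd1 were chosen for mention after their values were seen.

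Of the 3 genes that were lower, Fmo1, a flavin monooxygenase, had 158 CPM against 367 in untreated, 379 against 559 in sham and 121 against 182 in denervated BAT (log2 ratio -0.77 ± 0.21, n = 3, adjusted p = 0.032, edgeR). Cnnm3, a magnesium transporter, had between 18.6 and 30.4 CPM against between 53.2 and 73.8 CPM (-1.35 ± 0.36), and a gene on the opposite strand, Gm38033, overlaps it. Gm12002, an antisense transcript within Cobl on the opposite strand, had 326 against 562, 333 against 356 and 125 against 437 CPM (-0.71 ± 0.21). Each lost its call when the untreated or the denervated library was left out. Of 14 alternative settings, Fmo1 kept its call in 6, Cnnm3 in 5 and Gm12002 in 3.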

How the data were processed

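Single-nucleus transcriptomes of 3 BAT libraries were used. Raw UMI counts of each barcode and gene were deposited by the authors. Per the file headers, the untreated and denervated tables came from the BD Rhapsody pipeline 1.9 for nuclei, on GRCm38 with GENCODE vM19 with UMI errors corrected. No header stands in the sham table. The submitters' processing notes also list Seurat 4.0.6 and a human build. The removal of debris (DIEM) and ambient RNA (decontX) was not repeated, so such RNA stays in all values, and no doublet caller was run beyond the rule's ratio to adipocyte and pericyte UMIs.

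Barcodes were kept from 200 detected genes upward if mitochondrial genes gave no more than 50% of UMIs. Each IEG-high nucleus was paired, without replacement, with the endothelial nucleus of its library that had a sum of 0 and the nearest number of UMIs outside the 8 IEGs. Sums per library of the 21191 genes outside the rule, present in all 3 tables, were tested with edgeR 4.0.16 (R 4.3.3, TMM, quasi-likelihood, at least 50 UMIs in all), with the library as a replicate block because both sums came from the same library. SEs are the log2 ratio over the root of its F statistic, so they are not the spread over the 3 libraries. Library ratios are log2 of CPM ratios with a pseudocount of 0.5 UMIs added to each count, while their intervals used the counts as they were. Alternatives were DESeq2 1.42.0, other normalization, filters, thresholds and matching, and omission of each library.

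Genes named are the 8 IEGs, up to 4 called genes a list (2 with the most UMIs where none was called), and the 15 highest and 10 lowest called genes with at least 100 UMIs and 1 sign in all libraries. Further genes were chosen after their values were seen. The nuclei and the gene lists were chosen with earlier results of these data known. Promoters came from RefSeq (GRCm38.p6). Python 3.11.15, numpy 2.4.6, scipy 1.17.1, pandas 2.3.3 and matplotlib 3.10.9 were used.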

Additional observations from a re-analysis of the deposited data

Results flagged for a closer look

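For 3 abundant transcripts the sham library moved opposite to both others, and these differences between libraries were not tested. The log2 ratio of Scd1, a desaturase of lipogenesis that is abundant in adipocytes, was 0.22 in untreated, -0.33 in sham and 0.19 in denervated BAT. Malat1, a long noncoding RNA that is kept in the nucleus, had -0.28, 0.43 and -0.52 in the same order. Neat1, which builds nuclear paraspeckles, had -0.51, 0.16 and -0.65. None of the 3 was called over the 3 libraries.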

How the results depend on the processing

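Against 78 genes higher and 3 lower, DESeq2 gave 31 and 0 (167 at an unadjusted p under 0.05), a minimum of 500 detected genes 14 and 0 (247), an endothelial sum of at least 8 times the others 44 and 0 (446), and at most 10% mitochondrial UMIs 62 and 1. All nuclei with a sum of 0, unmatched, gave 5 lower genes, as did another order of matching and pairs within 0.1 in log2 UMIs, the last added after the data had been seen. The fit with no replicate block gave 6 and 0 (213). Leaving out 1 library gave 25 to 132 higher and 0 to 92 lower genes, highest without sham and lowest without untreated (25 and 0, 227 at an unadjusted p under 0.05), with 43 and 0 (328) without denervated. Calls of Atf3, Jun, Sik1 and Zfp36 held in all 14 settings and those of Egr3 in the 13 that tested it. Medians from other fits cover only the listed genes that were also tested there, so the genes behind them can differ. With 500 detected genes, 5519 genes were tested in all against 7388. Values per nucleus are differences of mean log2 values, after each nucleus was scaled to 10000 UMIs and 1 was added, with zero counts included. They are not log2 ratios, so their sizes cannot be compared with those of other settings. The median of the early transcription factors was 0.76 with 500 detected genes and 0.21 per nucleus. That of feedback regulators was 1.17 with a sum of at least 6, 1.24 at 8 times and 0.15 per nucleus, and 0.81 to 1.10 without 1 library. That of heat shock genes was 1.13 for pairs within 0.1, 0.48 per nucleus, and 0.79 to 1.12 without 1 library. Signs turned for glucocorticoid genes (-0.12 without untreated and -0.079 without denervated in a range of -0.12 to 0.29 without 1 library, -0.27 with a sum of at least 6) and angiocrine genes (0.016 with no replicate block, 0.11 without sham in a range of -0.11 to 0.11 without 1 library, 0.055 with 500 genes, 0.064 at 8 times). Of the other medians given above, that of interferon genes was between -0.17 (at 8 times) and 0.25 (without untreated), and that of arterial genes between -0.030 (with 500 genes) and 0.31 (pairs within 0.1). Venous genes ran from 0.11 (pairs within 0.1) to 0.98 (without untreated) and growth arrest genes from 0.61 (with 500 genes) to 0.88 (sum of at least 6). SRF and YAP genes ran from 0.44 (library totals) to 0.81 (at most 10% mitochondrial UMIs). Endothelial genes ran from -0.23 (library totals) to -0.11 (at most 10% mitochondrial UMIs). Per nucleus these lists had, in this order, 0.049, 0.091, 0.34 and -0.084. The share of IEG-high nuclei was 5.82% and 9.50% in untreated BAT thinned to 300 and 500 UMIs, 8.37% with a sum of at least 6, 11.4% with 500 genes and 8.94% with at most 10% mitochondrial UMIs. In sham it was 4.63%, 9.15%, 7.93% and 28.8% in the first 4 of these settings and 15.2% at 8 times, and in denervated BAT 12.7%, 22.4%, 11.8% and 34.2%. Thinning to 500 UMIs left out 1266 of 4634, 1896 of 4706 and 1143 of 1751 endothelial nuclei in untreated, sham and denervated BAT. Its shares therefore cover only the deeper nuclei. The causes were not tested. Depth was low, with a median of 549.5 to 822 UMIs per IEG-high nucleus.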

Other observations

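A few called genes belonged to no list. Slc38a2, a transporter of neutral amino acids, had log2 ratios of 0.61, 0.67 and 1.65 in untreated, sham and denervated BAT and was called higher (edgeR). Ptger4, a receptor for prostaglandin E, and Pde4b, which breaks down cAMP, were called with log2 ratios of 1.05 and 0.92 over the 3 libraries. None of these 3 genes was called without the untreated library or without the denervated library. Of 14 alternative settings, Slc38a2 kept its call in 7, Ptger4 in 5 and Pde4b in 4. Arc, an early gene best known in neurons, rests on 11, 20 and 14 UMIs in IEG-high nuclei against 1, 7 and 1 in matched nuclei. All of these were chosen after their values had been seen. Of the 78 genes called higher, 46 had their lowest log2 ratio in the sham library, against 27.7% of all genes tested. The 13 mitochondrial genes had a median log2 ratio of 0.16 and none was called. By library their median was 0.45 in untreated, -0.25 in sham and 0.12 in denervated BAT, so its sign differed in sham.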
